A study of Mus musculus with 4 samples.

Results

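The 39 Hox cluster genes of the mouse were examined for binding of the CP2-family transcription factor Tfcp2l1 in embryonic stem cells. They are the protein-coding RefSeq genes whose symbol is Hoxa, Hoxb, Hoxc or Hoxd followed by a digit, 39 of the 21887 protein-coding genes of the GRCm38.p6 table, and they lie in 4 clusters on 4 chromosomes. Binding came from ChIP-seq with a custom antibody to mouse Tfcp2l1 in untreated wild-type cells kept in 2i, a serum-free medium with 3 µM of the GSK3 inhibitor CHIR99021, 1 µM of the MEK inhibitor PD0325901 and 1000 units/mL of LIF. The study had 1 condition, measured in 2 repeats of 1 ChIP and 1 input library each, and it asked where ChIP tags pile up over input. Nothing in the labels says that the repeats were separate cultures, so differences between them may be technical. All 4 libraries shared genotype and medium, the inputs were used here solely as the background of the deposited peaks, and expression was not analysed here.

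Hox genes encode homeodomain transcription factors that pattern the body along the head-to-tail axis. Genes of a cluster lie in the order of their paralog groups, and in the embryo low-numbered genes near one end are activated earlier and more anteriorly than the group 9 to 13 genes at the other end. In embryonic stem cells the clusters are known as long domains of Polycomb-repressed chromatin, and Tfcp2l1 is known as a factor that sustains self-renewal downstream of LIF.

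A site here is a peak of repeat 1 that overlaps a peak of repeat 2 by at least 1 bp, with overlapping peaks merged. Each site was searched for within a cluster or up to 100 kb beyond its outer genes, and placed by the summit of its repeat 1 peak. Hoxa, on chromosome 6 from 52155367 to 52260880, has 11 genes. Hoxb, on chromosome 11 from 96194316 to 96368254, has 10 genes. Hoxc, on chromosome 15 from 102921131 to 103036856, and Hoxd, on chromosome 2 from 74668225 to 74765142, have 9 genes each. Gene spans are the table's start and end, in which exons and introns are not told apart. Some spans take in their neighbours. That of Hoxa3 covers Hoxa4, Hoxa5 and Hoxa6, that of Hoxb3 covers Hoxb4, that of Hoxd3 covers Hoxd4, and the spans of Hoxd10 and Hoxd11 overlap.

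Promoter windows from RefSeq, from 250 bp before a start to 50 bp after it, were matched for 24 starts of Hox genes, and a summit of both repeats fell in those of Hoxd1 and the inner start of Hoxd11. Their upstream 250 bases are shown because they are the matched Hox promoters that hold the summits. Capitals mark a paired CCAG element, the arrangement known for CP2 factors, searched on both strands as CCAG followed after 6 bases by CCAG or CCGG. Both are plus-strand sequences from RefSeq, GRCm38.p6, read 5′ to 3′, at chr2:74762730-74762979 and chr2:74682073-74682322.
Hoxd1: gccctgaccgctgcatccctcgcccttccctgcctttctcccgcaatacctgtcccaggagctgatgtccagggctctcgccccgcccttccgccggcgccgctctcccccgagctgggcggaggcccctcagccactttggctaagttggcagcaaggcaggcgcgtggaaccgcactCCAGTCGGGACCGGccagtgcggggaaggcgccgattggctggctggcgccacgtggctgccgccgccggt
Hoxd11: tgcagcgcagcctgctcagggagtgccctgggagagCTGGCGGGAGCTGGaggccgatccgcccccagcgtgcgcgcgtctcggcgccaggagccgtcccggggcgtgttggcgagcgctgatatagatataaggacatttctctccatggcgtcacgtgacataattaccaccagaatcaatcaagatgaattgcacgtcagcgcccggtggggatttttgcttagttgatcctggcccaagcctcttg
In Hoxd1, a gene activated early by retinoic acid, the element CCAGTCGGGACCGG began 71 bp before the start, and the summits lay 11 bp after the start in repeat 1 and 27 bp before it in repeat 2. In Hoxd11, a limb and kidney patterning gene, the element CTGGCGGGAGCTGG began 214 bp before the inner start, and the summits lay 133 and 222 bp before it. Neither match shows that the factor touches those bases.

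The 24 starts belong to 22 Hox genes, of which 9 lie in Hoxa, 3 in Hoxb, 1 in Hoxc and 9 in Hoxd. Those not matched included Hoxa4, Hoxb2, Hoxb3, Hoxb5, Hoxb6, Hoxb7, Hoxb9, Hoxb13, Hoxc5, Hoxc6, Hoxc8, Hoxc9, Hoxc10, Hoxc11, Hoxc12 and Hoxc13. A site overlapped 5 of the 24 windows in both repeats (20.8%), against 18% of all 32851 promoter windows, and these were the windows of Hoxd1, Hoxd3, Hoxd8, Hoxd9 and the inner start of Hoxd11. All 5 lay in the Hoxd cluster, where every gene was matched. None of the windows of the 9 matched Hoxa genes was overlapped in both repeats. Only 1 gene was matched in Hoxc and 3 in Hoxb. Promoters of unmatched genes were not examined, so the overlap cannot be called confined to Hoxd. Hoxc9, not matched, had a site 46 bp outside its span. A summit of both repeats fell in 2 of the 24, against 5.66% of all windows. The paired element was in 2 of the 24 Hox windows (8.33%), the same 2 that held the summits, and in 5.32% of all windows. Among all windows it was in 10.1% of those overlapped by a site and in 14.7% of those with a summit. A looser pair, each element spelled CNAG or CNGG with 6 bases between them on either strand, takes in the stricter one. It was in 11 of the 24 Hox windows (45.8%) and in 54.7% of all. The Hox windows had a median of 14.5 CpG dinucleotides and a median GC content of 57.7%, against 7 and 52.7% over all windows.

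MicroRNA genes lie between or inside the Hox gene spans, and 2 of them were covered by a site. Their mature strands are shown with the seed, bases 2 to 8, in capitals, because microRNAs that share a seed were and were not covered. Sequences are from RefSeq.
mmu-miR-196b-5p: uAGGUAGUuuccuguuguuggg
mmu-miR-196a-5p: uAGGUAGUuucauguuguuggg
mmu-miR-615-3p: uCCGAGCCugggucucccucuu
mmu-miR-10a-5p: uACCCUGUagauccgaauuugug
mmu-miR-10b-5p: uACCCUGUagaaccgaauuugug
The miR-196 family, whose members share the seed AGGUAGU, is known to target Hox transcripts. The Mir196b hairpin in Hoxa lay inside the peak of both repeats, 75 bp from the summit. The Mir196a-1 hairpin in Hoxb lay 5453 bp from the nearest site, and Mir196a-2 in Hoxc lay 3552 bp from one. Mir615 in Hoxc, of another seed, lay inside the peak of both repeats. Mir10a in Hoxb and Mir10b in Hoxd, which share the seed ACCCUGU, lay 5329 and 2366 bp from a site. Thus 1 of the 3 miR-196 loci was covered and neither miR-10 locus was. The share of all microRNA genes covered by a site was not computed, so these counts have no background and describe the loci only.

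The Hox windows held 90 peaks of repeat 1 and 83 of repeat 2. Of these, 66 (73.3%, exact 95% interval 63 to 82.1%) and 67 (80.7%, 70.6 to 88.6%) were shared with the other repeat, against 76.1% and 84.8% of all peaks. They made 66 sites, 42 inside the clusters and 24 in the flanks, of 43045 sites in the genome. The intervals cover counting error only. Sites per cluster were even in 3 clusters, with 11 in Hoxa, 12 in Hoxc and 11 in Hoxd, and 8 in Hoxb, the longest cluster. The summits of the 2 repeats lay a median of 24 bp apart (28 bp over all sites), and 63 of the 66 were within 100 bp.

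**Figure D1:**
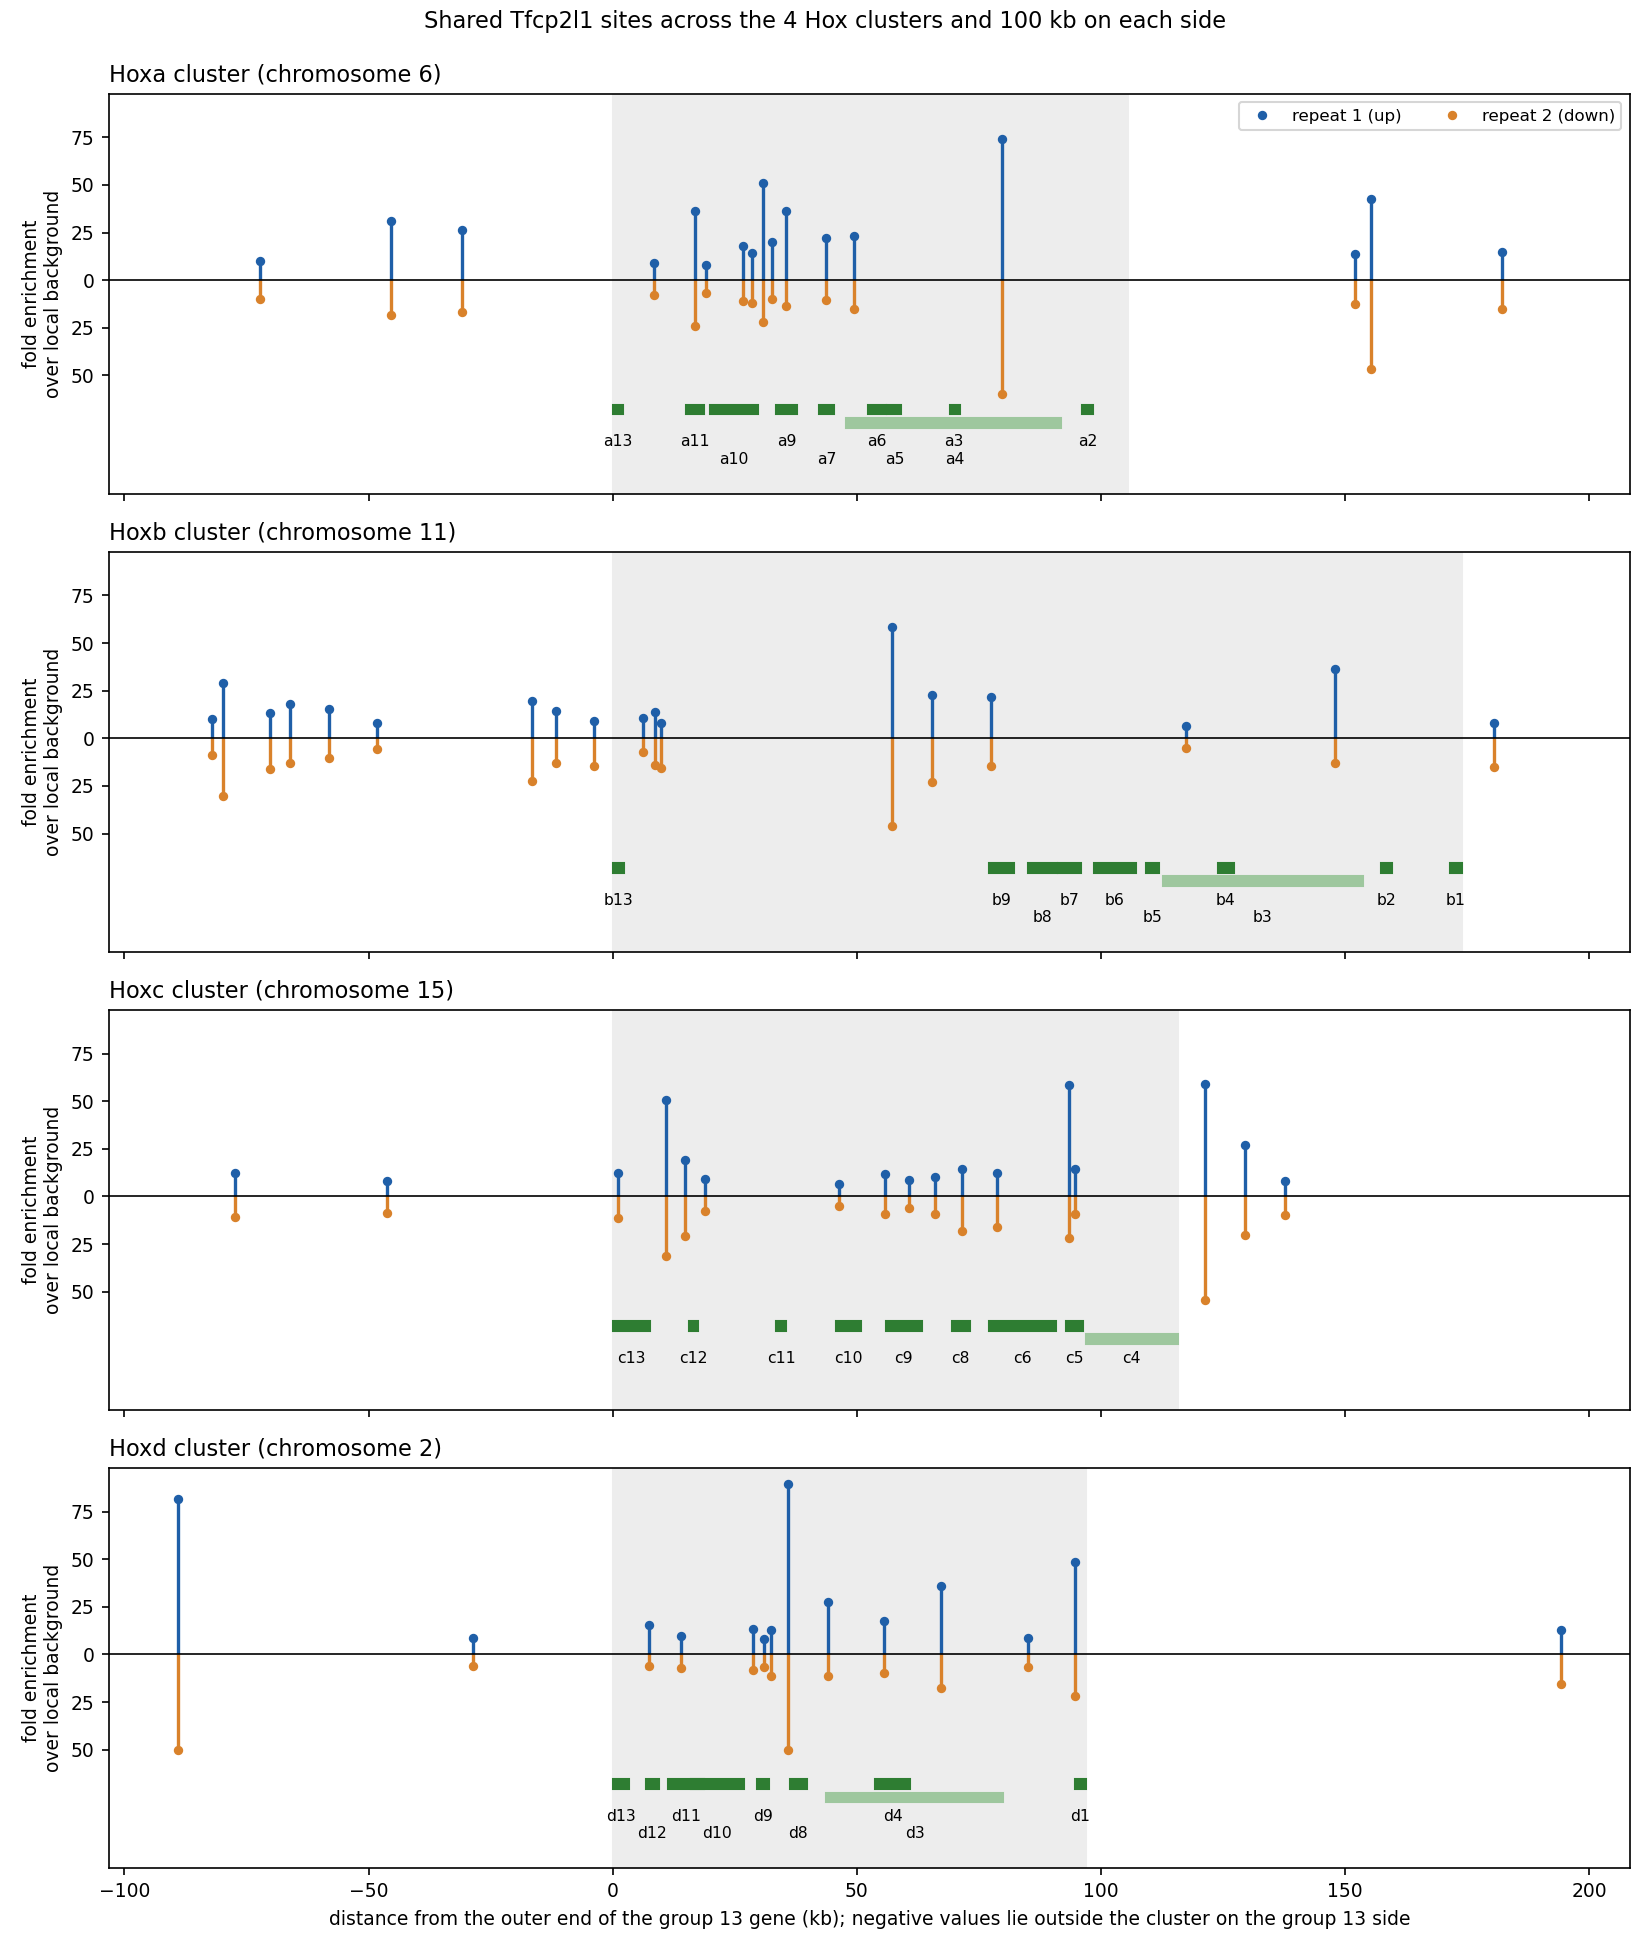
Authors' fold enrichment over local background at each site (vertical axis, repeat 1 in blue upward and repeat 2 in orange downward) against distance in kb from the outer end of the group 13 gene (horizontal axis), 1 panel per cluster, with the cluster in grey, named Hox genes as green boxes and gene spans over 15 kb in pale green. In Hoxa 8 of the 11 cluster sites gather on the group 9 to 13 side, while Hoxb has a gap of 47.5 kb between the sites near Hoxb13 and the site of 58.5 and 45.8.

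Sites were denser inside 3 of the 4 clusters than on either side of them, and Hoxb was the exception, with 90 per Mb in the flank beyond Hoxb13. Site density was 104 per Mb in Hoxa, 46 in Hoxb, 104 in Hoxc and 113 in Hoxd, and 85.3 over the 4 clusters. The flanks held 30 per Mb and the autosomes 17.3. Every cluster was above its chromosome, which held 14.7 per Mb for chromosome 6, 27.7 for chromosome 11, 17.4 for chromosome 15 and 18.2 for chromosome 2. The clusters are rich in genes, and over the genome 70.8% of 100 kb tiles with a protein-coding gene end held a site, 21.3% held at least 5 and 3.9% held at least 10. The part that gene density has in the difference was not tested.

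**Figure D2:**
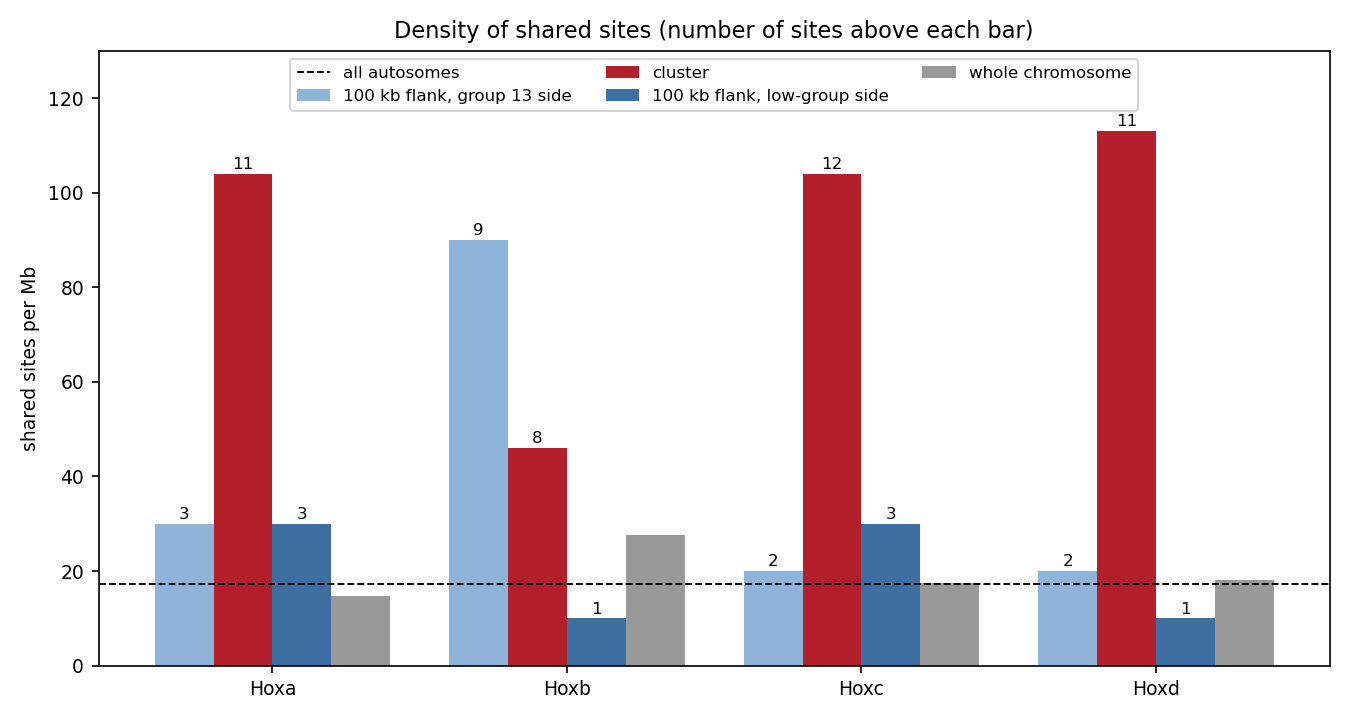
Sites per Mb (vertical axis, from 0) in each cluster (red), its 100 kb flanks (light and dark blue) and its whole chromosome (grey), with the number of sites above each bar and the autosomes as a dashed line. Hoxa, Hoxc and Hoxd are at 104, 104 and 113, and in Hoxb the flank on the group 13 side, at 90, is above the cluster, at 46.

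Of the 39 Hox genes, 34 (87.2%) had a site inside the gene or within 10 kb of an end, against 64.5% of all protein-coding genes. Within 1 kb the count was 21 (53.8%), against 51.5%, and inside the span 19 had a site, against 44.7%. So the Hox genes stood above the background at 10 kb and near it at 1 kb. With a fold enrichment of at least 10 in each repeat the count within 10 kb was 26 (66.7%), against 50% of all genes. With a p-value score of at least 100 in each repeat it was 28 (71.8%), against 55%. Among peaks with an FDR of 0 in each repeat it was 11 (28.2%), against 24.9%, so the distance from the background was small there. That FDR limit also dropped strong sites. Of the 14 window sites with fold enrichment of 20 or more in both repeats, 11 had an FDR above 0 in repeat 2. Genes share sites: the 34 genes rested on 43 sites, 34 of which counted for more than 1 gene, with 4 sites counted for 4 genes each. By cluster, 9 of 11 Hoxa genes, 8 of 10 Hoxb genes, 8 of 9 Hoxc genes and 9 of 9 Hoxd genes had a site within 10 kb. At 1 kb the counts were 5, 2, 7 and 7. The median Hox gene had 2 sites within 10 kb and a span of 3.74 kb, and the median protein-coding gene had 1 site and a span of 17.2 kb.

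The genes without a site within 10 kb included Hoxa2, which patterns the hindbrain and branchial arches, Hoxb6 and Hoxb7 of the trunk groups, and Hoxc11, a hindlimb gene. The nearest sites were 16273 bp from Hoxa2, 10267 bp from Hoxb6, 13725 bp from Hoxb7 and 10772 bp from Hoxc11. All 39 had a peak of at least 1 repeat within 10 kb, so these genes were near peaks that the other repeat did not share.

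By paralog group, the nearest Hox gene was of groups 9 to 13 for 27 of the 42 cluster sites, of groups 5 to 8 for 6 and of groups 1 to 4 for 9. Per gene this was 1.69, 0.545 and 0.75 sites, for 16, 11 and 12 genes. The group 9 to 13 genes therefore had the most sites for their number. This count took the nearest gene at any distance, up to 19705 bp at a site between Hoxb13 and Hoxb9. It was set by span ends, and the long Hoxa3 and Hoxb3 spans run past other genes. A site between Hoxa6 and Hoxa7 counted for Hoxa3, and one between Hoxb5 and Hoxb4 counted for Hoxb3. The low-group and middle-group counts and values therefore depend on the spans. The length of DNA around each group of genes was not taken into account. In Hoxd alone the low and high groups had equal counts, 5 sites each, with 1 between. The median fold enrichment was 13.5 in repeat 1 and 11 in repeat 2 at the high groups, 18.3 and 17.1 at the middle groups and 27.5 and 12.9 at the low groups. Within 1 kb, 5 of 12 low-group genes, 5 of 11 middle-group genes and 11 of 16 high-group genes had a site (41.7%, 45.5% and 68.8%), against 51.5% of all genes. Of the 42 cluster sites, 24 lay inside a Hox span and 18 between spans, and 14 were within 1 kb of a Hox gene end.

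Fold enrichment, the authors' ratio of ChIP tags at a summit to the local background, had a cluster median of 15 in repeat 1 and 11.4 in repeat 2, against 15.5 and 11.8 over all sites. The clusters thus held many sites of ordinary strength. Values ran from 6.35 to 89.4 in repeat 1 and from 5.1 to 59.6 in repeat 2. At least 20 in both repeats was reached by 14 of the 66 window sites (21.2%), against 24.1% of all. Of the window sites, 5 were in the top 10% by fold enrichment of both lists, 3 of them inside a cluster. The same share over all sites was not computed, so this count cannot be called high or low.

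**Figure D3:**
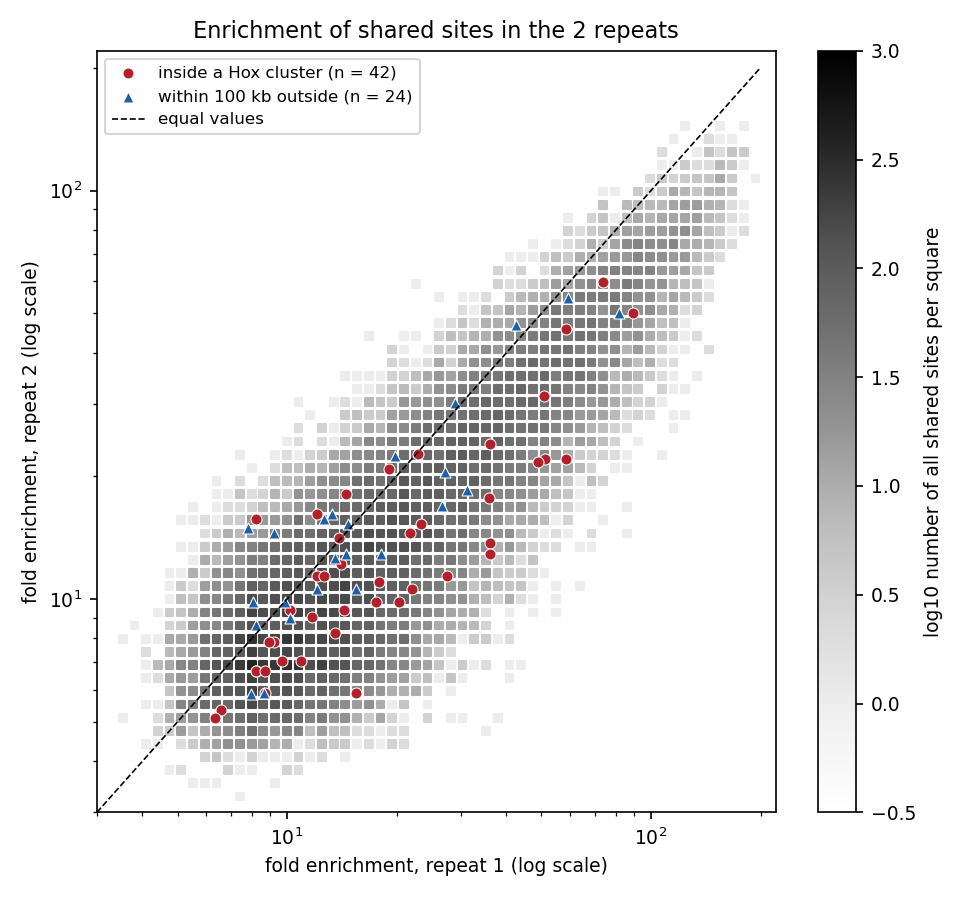
Fold enrichment in repeat 2 (vertical axis) against repeat 1 (horizontal axis), both on log scales, for the 42 cluster sites (red circles) and 24 flank sites (blue triangles), over the number of all sites per square in grey. Below the dashed line of equal values lie 37 of the cluster sites and 14 of the flank sites.

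In Hoxa the strongest site lay at the low-group end. It was inside the long span of Hoxa3, a gene of thymus and parathyroid development, at 52180159 to 52181404, with fold enrichments of 73.9 and 59.6 from 244 and 325 tags. Its summits were 1 bp apart and 8578 bp from Hoxa4. They lay inside the noncoding gene LOC115490409, 253 bp from an end of another noncoding gene, 5730596B20Rik. The site that covered Mir196b, between Hoxa9 and Hoxa10 at 52229020 to 52230632, had 51.1 and 22 from 206 and 138 tags. Fold enrichment in repeat 2 was 0.807 times that of repeat 1 at the Hoxa3 site and 0.43 times at the Mir196b site.

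In all, 8 of the 11 Hoxa cluster sites were nearest to Hoxa9, Hoxa10, Hoxa11 or Hoxa13. The site inside Hoxa11, which patterns forearm and kidney, had 36.2 and 23.9, and that inside Hoxa9, a gene of blood progenitors, had 36.2 and 13.7. Inside Hoxa10, of uterus and lumbar spine, there were 2 sites, with 17.9 and 11 and with 14.1 and 12.2. The site 770 bp from Hoxa9 had 20.3 and 9.81, the site 356 bp from Hoxa11 had 8.21 and 6.67, and the site 6370 bp from Hoxa13, a digit and genital gene, had 9.18 and 7.85. These were mostly modest sites spread across the posterior end. Inside Hoxa7 a site had 22.1 and 10.6, where repeat 2 held 2 peaks for the single peak of repeat 1 and its 43 tags are those of 1 of them. The other site inside the Hoxa3 span, 1559 bp from its far end, had 23.3 and 15.3. No site lay for 30.4 kb across Hoxa4, Hoxa5 and Hoxa6, or for 72.2 kb in a stretch that held Hoxa2. Beyond the low-group end of Hoxa, a site inside the noncoding gene Halr1 had 42.5 and 46.8. Its neighbour in Halr1 had 13.5 and 12.6, and a site whose nearest protein-coding gene was Skap2, an adaptor of Src kinases, had 14.7 and 15.3. On the other side, 3 sites were nearest to the homeobox gene Evx1, with 9.9 and 9.81, 31.2 and 18.5, and 26.6 and 16.9.

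In Hoxb the strongest site lay in the wide interval between Hoxb13 and Hoxb9, at 96250281 to 96252439. It had fold enrichments of 58.5 and 45.8 from 342 and 288 tags, its summit fell on the same base in both repeats, 35 bp from the noncoding gene Gm53, and Hoxb9 was 19705 bp away. It was thus far from any Hox gene. A site 11619 bp from Hoxb9 had 22.9 and 22.7, and one inside Hoxb9, a gene of the thoracic skeleton, had 21.7 and 14.5. Near Hoxb13, a prostate gene, 3 sites had 10.9 and 7.06, 13.9 and 14.1, and 8.21 and 15.7. Inside the Hoxb3 span 1 site had 36.2 and 12.9 and another 6.6 and 5.36. No site lay in the 47.5 kb between the Hoxb13 sites and the Gm53 site, or for 40 kb across Hoxb5, Hoxb6, Hoxb7 and Hoxb8, where repeat 1 alone had 3 peaks. A stretch of 30.3 kb without a site held Hoxb4, and one of 32.7 kb held Hoxb1 and Hoxb2.

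The Hoxb flank beyond Hoxb13 held 9 sites, more than any other flank. Inside Calcoco2, an autophagy receptor gene, 3 sites had 10.2 and 9.0, 29.0 and 30.2, and 13.3 and 16.1. Inside Ttll6, a tubulin-modifying enzyme gene, 3 had 18.1 and 12.9, 15.5 and 10.6, and 7.94 and 5.86. The 3 sites between Ttll6 and Hoxb13 had 19.8 and 22.4, 14.5 and 12.9, and 9.23 and 14.5. Beyond Hoxb1 the only flank site had 7.8 and 14.9.

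In Hoxc the site with the most tags lay outside the cluster, 5653 bp beyond Hoxc4 in the noncoding gene Gm30528, at 103041265 to 103043078, with 406 and 431 tags and fold enrichments of 59.2 and 54.5. Its summits were 634 bp apart, the largest gap of the 66 sites. Inside Hoxc5, the site that covered Mir615 at 103014115 to 103015151 had 58.5 and 22 from 161 and 95 tags. Between Hoxc13 and Hoxc12 a site at 102931232 to 102932557 had 50.7 and 31.4 from 172 and 160 tags. The Hoxc cluster thus had 2 strong sites, 1 near each end.

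The other Hoxc cluster sites were weaker. Hoxc13, a hair and nail gene, held a site with 12.1 and 11.4. The sites 858 and 1443 bp from Hoxc12 had 19.1 and 20.8 and 8.9 and 7.85. Hoxc10, of lumbar motor neurons, held one with 6.35 and 5.1, the lowest repeat 1 value in the clusters. At Hoxc9, of thoracic motor neurons, the sites were 46 bp outside the gene with 11.7 and 9.03, inside it with 8.7 and 5.89, and 2804 bp from it with 10.2 and 9.42. Hoxc8 and Hoxc6, genes of brachial identity, went the other way between repeats, with 14.5 and 18.1 in Hoxc8 and 12.1 and 16.1 in Hoxc6. A further site in Hoxc5 had 14.3 and 9.42. Beyond Gm30528's first site, 2 more in that gene had 27.1 and 20.4 and 8.07 and 9.81, and beyond Hoxc13 2 sites had 12.1 and 10.6 and 8.21 and 8.63. No site lay for 27.4 kb across Hoxc11 or for 26.6 kb across Hoxc4.

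Hoxd held the cluster site of highest fold enrichment in repeat 1, which in repeat 2 was below the Hoxa3 site. It lay between Hoxd9 and Hoxd8, 530 bp from Hoxd8, at 74703477 to 74705264, with fold enrichments of 89.4 and 50.2 from 288 and 239 tags. The Hoxd1 start site, at 74762603 to 74763574, had 48.8 and 21.6 from 138 and 96 tags, and lay 95 bp from the noncoding gene Haglr. Both were higher in repeat 1, as were all 11 Hoxd cluster sites.

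Within the Hoxd3 span, which also covers Hoxd4, sites had 27.5 and 11.4, 17.6 and 9.81, and 35.8 and 17.7, the site of 17.6 being inside Hoxd4 as well. These genes shape the upper neck vertebrae. Near Hoxd9 the 3 sites had 13.5 and 8.24, 8.21 and 6.67, and 12.6 and 11.4. The site inside Hoxd12, a digit gene, had 15.5 and 5.89 from 76 and 34 tags, and the Hoxd11 inner start site had 9.66 and 7.06 from 68 and 37 tags. A site between Hoxd3 and Hoxd1 had 8.7 and 6.67. Around Hoxd13, a digit gene, no site lay for 36.2 kb. In the flank, a site at the Lnpk end, 196 bp from it, had 81.7 and 50.2 from 243 and 206 tags, and one nearest to the homeobox gene Evx2 had 8.66 and 5.89. Lnpk encodes an endoplasmic reticulum protein. Beyond Hoxd1 the next site was 99.4 kb away inside Mtx2, a mitochondrial import gene, with 12.6 and 15.7.

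Between repeats, fold enrichment was lower in repeat 2 at 37 of the 42 cluster sites (88.1%) and at 14 of the 24 flank sites (58.3%), against 78.3% of all sites and 84.2% of the 6047 sites within 1 kb of a protein-coding gene end. Tag counts were lower in repeat 2 at 27 of 42 cluster sites (64.3%), 8 of 24 flank sites (33.3%), 52.6% of all sites and 70.9% of sites near gene ends. The median ratio of tags, repeat 2 over repeat 1, was 0.87 in the clusters, 1.2 in the flanks, 0.97 over all sites and 0.821 near gene ends. Repeat 2 had the deeper ChIP library, 22555373 filtered tags against 19353473. By cluster the ratio was 0.882 in Hoxa, 0.953 in Hoxb, 1 in Hoxc and 0.696 in Hoxd, where 10 of 11 sites had fewer tags in repeat 2. The cluster sites lay closer to the value near gene ends than the flank sites did, and the cause was not tested.

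**Figure D4:**
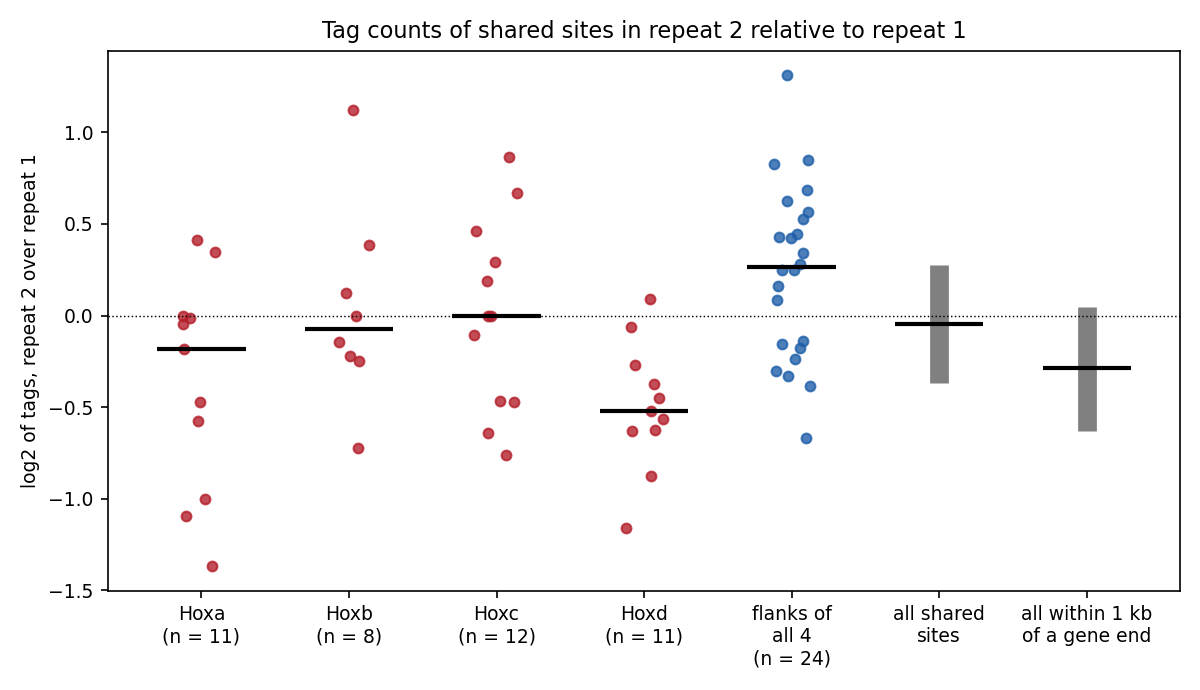
The log2 ratio of tags in repeat 2 over repeat 1 (vertical axis) at each site by cluster (red) and in the flanks (blue), with medians as black lines, and for all sites and sites within 1 kb of a gene end the median and the quartiles as grey bars. In Hoxd 10 of 11 sites lie below 0, and in the flanks 8 of 24 do.

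Peaks of 1 repeat alone numbered 24 in repeat 1 and 16 in repeat 2 in the windows. Their tags had a median of 24 (18 to 62) and of 29 (19 to 53), and fold enrichments of 5.74 to 11.9 and 4.32 to 10.2, against medians of 15.5 and 11.8 over all sites.

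Genes that work with or regulate Hox genes, and other homeobox genes, were counted in the same way. Hox cofactors, which bind DNA together with Hox proteins, had a site within 10 kb at 8 of 9 (88.9%). Values were 122 and 104 at Pbx4 and 110 and 67.5 at Pknox1, and no peak of either repeat lay near Meis3. Cdx, ParaHox and retinoic acid genes, some of which act upstream of Hox activation, had a site within 10 kb at 15 of 18 (83.3%). They were led by Cdx1 with 86.8 and 75.3, Rarg with 64.2 and 36.2 and Rxra with 54.5 and 56.1. No peak of either repeat lay near Aldh1a2 or Cdx4. The list of Polycomb and trithorax genes, which hold the clusters silent or active, also took in Ctcf, which belongs to neither group. It had a site within 10 kb at 20 of 22 genes (90.9%). The list was led by Cbx7 with 119 and 98.9, Rnf2 with 110 and 85.2 and Ctcf with 62.2 and 56.9. Homeobox genes outside the clusters had a site within 10 kb at 60 of 71 (84.5%). They were led by Vax2 with 96.3 and 109, Mnx1 with 98.5 and 78.1 and Pax7 with 83.3 and 76.5. No peak of either repeat lay near Nkx2-1, Nkx2-2, Nkx3-2 or Nkx6-1. The shares of all 4 lists were above the 64.5% of all genes, as was that of the Hox genes. In repeat 2 the highest site of each list, at Pbx4, Cdx1, Cbx7 and Vax2, was above the 59.6 of the highest Hox cluster site. In repeat 1 this held for Pbx4, Cbx7 and Vax2, while Cdx1 was below the 89.4 of the Hoxd8 site. Within 1 kb a site was at 7 of 9 cofactors and 12 of 18 Cdx, ParaHox and retinoic acid genes. The counts were 16 of 22 for the Polycomb and trithorax list and 43 of 71 for other homeobox genes. The background was 51.5% of all genes.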

How the data were processed

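Peaks were called by the authors separately in each repeat, ChIP against the input of the same repeat, with MACS 1.4.1 at a p-value limit of 1e-05, per the file headers. CASAVA 1.8.2 is named too, per the submitters' processing notes. An aligner is not given in the sources read for this work. Each deposited peak has a tag count (unnormalized ChIP tags), a score (from the p-value), a fold enrichment (the ratio of ChIP to local background, per the file headers) and an FDR in percent, all the authors' values. Filtered ChIP tags numbered 19353473 and 22555373, and filtered input tags 18446758 and 23825930. The notes name mm9, but positions are those of GRCm38: chromosome Y reaches 90.8 Mb, and 5.92% of shared summits lay within 200 bp of a GRCm38 start, against 0.906% and 0.955% after moving summits by 5000 bp either way.

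Overlaps, distances, densities and motif matches were computed with Python 3.11.15, numpy 2.4.6 and pandas 2.3.3, and intervals (Clopper-Pearson) with scipy 1.17.1. Overlap and distance functions were tested on simulated data. Chromosome length was taken as the last annotated gene or peak end. With 1 condition there was nothing to test between groups, and no p-value is given. The 39 genes and the 4 other lists were chosen with earlier results of these data known. Named genes were every Hox gene nearest to a site, every other protein-coding gene that holds or is nearest to a site in a window, and the 3 genes of each other list with the highest mean fold enrichment. Some genes the rule names are not reported. Alternatives covered peak limits, the overlap rule, single repeats, flank widths, distances to genes and ranking.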

Additional observations from a re-analysis of the deposited data

How the results depend on the processing

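Where fold enrichment had to reach 10 in each repeat, the windows held 40 sites in place of 66, and the clusters 48.8 per Mb (autosomes 9.57) in place of 85.3 (17.3). With an FDR of 0 in both repeats they held 13 sites at 18.3 per Mb (autosomes 2.99), 11 Hox genes had a site within 10 kb (28.2%, against 24.9% of all genes) and 6 within 1 kb (15.4%, against 17.3%), so the Hox share was close to the background at 10 kb and below it at 1 kb. That limit drops strong sites: of the 14 sites whose fold enrichment reached 20 in each repeat, 11 had an FDR above 0 in repeat 2 and 0 had one in repeat 1. The same share over all sites of that strength was not computed, so it is not known to be particular to the Hox windows. The median percentile of the window sites among all peaks, averaged over the repeats, was 60.9 by fold enrichment and 58.2 by score. Over all sites the median percentile by fold enrichment was 61.8 in repeat 1 and 58.2 in repeat 2, so the window sites were near it. Each repeat alone gave 83 to 90 peaks, shared or not, and 99.6 to 118 peaks per Mb in the clusters. Such peaks lay within 10 kb of 36 to 38 Hox genes (92.3 to 97.4%, against 68.1% and 71.3% of all genes). Within 1 kb the count was 22 to 28 (56.4 to 71.8%, against 54.9% and 59.5%). By the values of 1 repeat, the median percentile of the window sites was 59 to 62.7. Under every alternative run that changed the density, the clusters stayed above the autosomes. With the fold limit of 10 or a score limit of 100, 26 and 28 Hox genes had a site within 10 kb (66.7% and 71.8%, against 50% and 55% of all genes), and a 5 kb distance gave 26 (66.7%, against 58.5%). Requiring the overlap to cover 50% of both peaks, or summits within 200 bp, kept the count at 34. No paired analysis was possible because every result is a description without a test, and inputs were seen solely in the deposited calls. The peaks of 1 repeat alone had as few as 18 tags, and weaker sites were not detectable at this depth.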

Other observations

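The long intervals without protein-coding genes beside the Hoxd cluster, which are known to hold distant limb enhancers of Hoxd genes, were looked at after their values were seen. Between Lnpk and Atp5g3, 602 kb held 6 sites (9.96 per Mb), the highest at 74073024 to 74074216 on chromosome 2 with fold enrichments of 68.6 in repeat 1 and 64 in repeat 2. Between Mtx2 and Gm50595, 575 kb held 5 sites (8.69 per Mb), the highest with 57.7 and 45.1. The 60.7 kb between Hoxd1 and Mtx2 held 0. Both intervals were below the 17.3 per Mb of the autosomes, and the Hoxd cluster between them held 113 per Mb.

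Beside Hoxa, the 228 kb between Evx1 and Hibadh held 9 sites (39.5 per Mb), the highest at 52434893 to 52436390 on chromosome 6 with 123 and 54.3, above every site of the Hoxa window in repeat 1. The 268 kb between Skap2 and Snx10 held 8 (29.8 per Mb), the highest with 84.3 and 47.9. Beside Hoxc, the 22.6 kb between Smug1 and Cbx5, which encodes a heterochromatin protein, held 3 sites, the highest with 72.6 and 87.1.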
